A study of Mus musculus with 6 samples.

Results

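The combined treatment of LCL161 with LTα1β2 was compared with vehicle in macrophages grown from the bone marrow of mice (BMDM), a standard cultured form of the cell. The series holds 6 RNA sequencing libraries, and the comparison rests on 4 of them, chosen by their labels: 2 from cells that received LCL161 plus LTα1β2 and 2 from cells that received vehicle, both after 24 h. The other 2 libraries, from cells given LTα1β2 alone for 24 h, entered the shared model and are set beside the comparison where they help to place a level. LTα1β2 is the lymphotoxin heterotrimer made by lymphocytes, and the small molecule LCL161 antagonises cIAP1 and cIAP2, members of the inhibitor of apoptosis family. LCL161 was not given by itself in any group, so the net change cannot be divided into a part of each agent, and the step from LTα1β2 to the combination is the only view of the antagonist. The series is titled as a study of cIAP antagonism and of phagocytes reprogrammed with the help of T cells, and the comparison asks what state macrophages reach when the ligand and the antagonist are present together. The labels give no strain, sex, age or dose of either agent, and whether replicates are separate mice or cultures is not said, so the spread behind the p-values may be technical.

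LTα1β2 binds the lymphotoxin beta receptor. In resting cells cIAP1 and cIAP2, held in a complex with TRAF2 and TRAF3, mark the kinase NIK for degradation, and receptor engagement breaks this complex up. NIK then accumulates, and the NF-kB precursor encoded by Nfkb2 is processed and enters the nucleus with RelB, which is called the noncanonical pathway. Antagonists such as LCL161 bind the cIAP proteins and cause their loss, which also stabilises NIK and changes signalling from TNF receptors. Macrophages answer NF-kB and interferon signals with chemokines, antigen presentation, nitric oxide and itaconate enzymes, complement and survival factors, and the results are ordered along these roles.

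The start regions of 7 genes are shown because the results return to them: they carry the short motifs through which interferon factors, NF-kB and the cell cycle program are known to act. The sequences are from RefSeq (GRCm38.p6) and run 5′ to 3′ on the strand of the gene. Each ends at the base before the start of a RefSeq entry of the gene (that of Cxcl10 ends further upstream). These starts can differ from the gene positions of GENCODE M21 given below. The stretch of Nfkb2 lies inside the GENCODE gene, which starts at 46304320, and those of Gbp2 and Cdc20 lie partly inside theirs. Capitals mark the matches of the motifs named beside each gene, and matches of the other motifs searched are left in lower case, such as a CCAAT box in Irf1 and in Nfkb2.
Gbp2, chr3:142620563-142620662, plus strand, ISRE: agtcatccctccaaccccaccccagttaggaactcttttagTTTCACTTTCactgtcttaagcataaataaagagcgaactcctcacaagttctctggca
Isg15, chr4:156200819-156200918, minus strand, ISRE: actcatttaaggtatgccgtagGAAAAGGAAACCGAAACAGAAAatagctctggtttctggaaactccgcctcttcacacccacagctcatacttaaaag
Cxcl10, chr5:92348980-92349109, minus strand, ISRE and kappaB: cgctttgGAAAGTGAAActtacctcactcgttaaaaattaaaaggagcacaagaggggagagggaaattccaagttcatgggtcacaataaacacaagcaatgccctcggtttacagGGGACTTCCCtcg
Irf1, chr11:53769914-53770013, plus strand, GAS and kappaB: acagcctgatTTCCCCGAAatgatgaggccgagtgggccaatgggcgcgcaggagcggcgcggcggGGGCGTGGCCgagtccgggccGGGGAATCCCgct
Nfkb2, chr19:46304637-46304736, plus strand, kappaB: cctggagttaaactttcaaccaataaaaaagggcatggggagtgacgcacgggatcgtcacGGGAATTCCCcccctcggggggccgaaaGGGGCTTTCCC
Nfkbia, chr12:55492648-55492747, minus strand, kappaB: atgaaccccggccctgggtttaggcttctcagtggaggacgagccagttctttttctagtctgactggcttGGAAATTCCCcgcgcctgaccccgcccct
Cdc20, chr4:118437344-118437403, minus strand, CCAAT box and CHR: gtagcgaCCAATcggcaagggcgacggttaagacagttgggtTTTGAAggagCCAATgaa
The motifs searched on both strands were the interferon-stimulated response element (ISRE, GAAA repeated after a gap of 2 bases), the gamma-activated site (GAS, TTCNNNGAA), the NF-kB site (kappaB, GGGNNT followed by NNCC), the CCAAT box (CCAAT), the cell cycle homology region (CHR, TTTGAA), the sterol regulatory element (SRE, TCACNCCAC) and the TATA box (TATAAA). Matches may overlap, as those of Isg15 do and the last pair of Nfkb2. In the 300-base windows around the start of 12300 tested genes with an entry, an ISRE match was present in 4.0%, a GAS match in 8.47%, a kappaB match in 25.9%, a CCAAT box in 42.7%, a CHR match in 15.5%, an SRE match in 1.31% and a TATA box in 10%. A match describes letters only and does not show that a factor binds there.

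Expression was quantified from expected read counts of 14718368 to 19049613 per library, and 18812 of 55023 listed genes passed the filter on low counts. Levels are given as reads per 1000000 reads of the library (CPM, scaled with TMM factors, the library scaling of edgeR), always as replicates 1 and 2 of a group (n = 2), and where 3 groups are given, in the order vehicle, LTα1β2 and combination. Changes are log2 fold changes against vehicle with a standard error (SE) from edgeR's quasi-likelihood test, and adjusted p is its Benjamini-Hochberg value over all genes tested. The 95% intervals of log2 changes are not adjusted for the number of genes. The words rose, fell and changed are used of a gene where the adjusted p was under 0.05. With LCL161 plus LTα1β2, 7431 genes (39.5%) changed against vehicle: 3463 (18.4%) were higher and 3968 (21.1%) lower. Of the genes that changed, 4374 (23.3% of those tested) moved by at least 2-fold, 2093 upward (11.1%) and 2281 downward (12.1%). Of the largest changes more were increases: 404 genes rose and 311 fell by at least 8-fold, and 115 rose and 22 fell by at least 32-fold. The genes called higher took 23.4% and 24.5% of the reads in the vehicle libraries, 39.1% and 38.5% with LTα1β2 alone, and 51.2% and 51.5% with the combination. In the opposite direction, the genes called lower took 33.1% and 30.6% of the vehicle reads, 19.1% and 20.4% with LTα1β2 and 12% and 11.5% with the combination. The TMM factors separated by group, from 1.10 to 1.15 in vehicle, 0.984 to 0.985 with LTα1β2 and 0.874 to 0.936 with the combination. Scaling by total counts instead moved the median log2 change of all genes from 0.047 to -0.26 and the share of calls that were higher from 46.6% to 24.6%, so small changes near 0 depend on the scaling. Without vehicle replicate 1 the number of genes called was 4885 and the number higher 1900, and without vehicle replicate 2 the number higher was 2060.

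**Figure D1:**
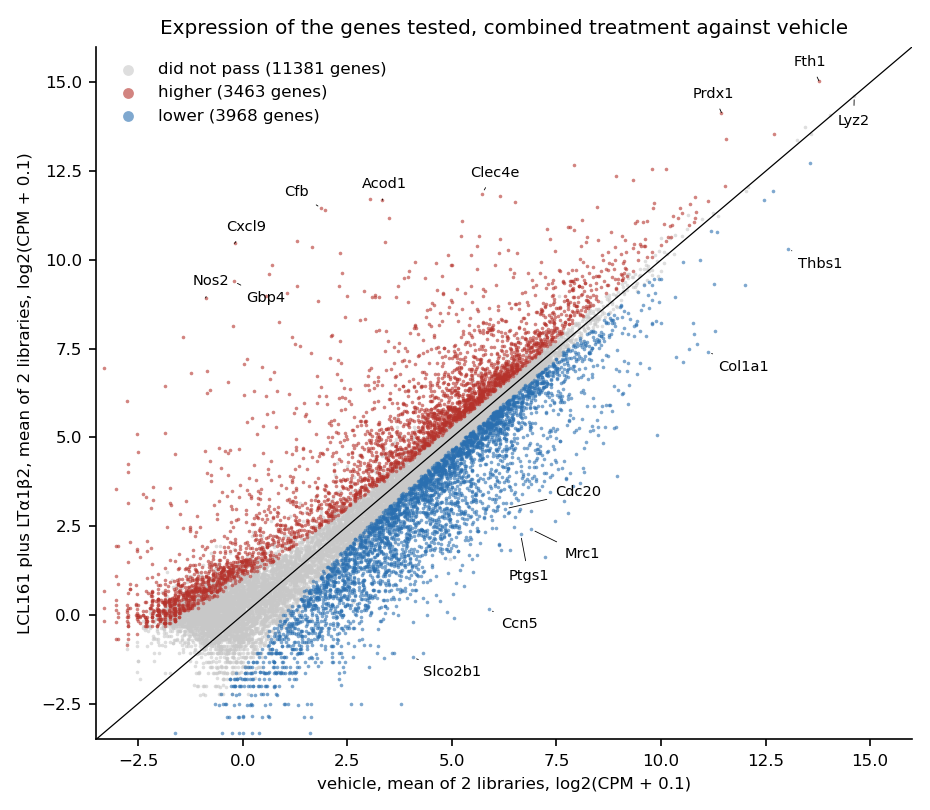
Mean expression of each of the 18812 genes tested in the 2 vehicle libraries (horizontal axis) and the 2 LCL161 plus LTα1β2 libraries (vertical axis), both as log2(CPM + 0.1), with genes that passed edgeR's test in red (higher) or blue (lower), the rest in grey and the line of equal expression in black. The points farthest from the line lie above it, at genes such as Nos2 and Cxcl9 that were under 1 CPM in both vehicle libraries.

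The cultures carried the markers of macrophages throughout. Lyz2, the lysozyme gene of myeloid cells, stood at 22313 and 28019 CPM in vehicle and 24645 and 26079.5 CPM with the combination, where the groups overlapped and no change was called (log2 change 0.011, 95% interval -0.32 to 0.34). Levels of Cd68, a lysosomal membrane protein of macrophages, were 964 and 1169 CPM against 1111 and 1266 CPM, and those of Csf1r, the receptor for macrophage colony-stimulating factor, 2199 and 2633 CPM against 2507 and 2621 CPM. Neither passed the test, and total-count scaling turned the sign of all 3 log2 changes (Lyz2 to -0.30, Cd68 from 0.16 to -0.16 and Csf1r from 0.086 to -0.22). The 14 macrophage lineage genes summed to 26789 and 33094 CPM in vehicle and 31912 and 33163 CPM with the combination. Markers of stromal cells were also present. The summed level of 17 fibroblast and matrix markers was 16214 and 11072 CPM in vehicle, 4728 and 6747 CPM with LTα1β2 and 1553 and 1491 CPM with the combination, and 15 of these markers fell and none rose. No marker of that list was at 0 in a combined library, and the lowest was at 0.536 CPM. All 9 myofibroblast and smooth muscle markers fell, from sums of 4635 and 3793 CPM to 435 and 400.3 CPM. Osteoblast markers went from 2950.1 and 2123 CPM to 631 and 667 CPM, with 5 of 7 tested lower and 1 higher. With DESeq2 5 were lower and 0 higher. The count higher was also 0 with total-count scaling, with no filter beyond 1 read and with a minimum of 1 CPM in 2 libraries, where 6 were tested. Neutrophil markers summed to 548 and 805 CPM in vehicle and 366 and 391 CPM with the combination, with 8 of 11 lower and 1 higher, Ly6g (0.185 and 0.162 against 0.657 and 0.766 CPM), whose adjusted p of 0.0281 missed the threshold whichever of the 6 libraries was left out (up to 0.16) and was 0.0899 with DESeq2. Without vehicle replicate 2 the counts were 4 lower and 0 higher. In these bulk libraries fewer cells of a type and less RNA per cell cannot be told apart, and each level below is that of the whole culture. The 7 tested endothelial markers went the other way, from sums of 29.8 and 35.0 CPM in vehicle to 64.7 and 68.4 CPM with the combination (2 higher, 0 lower). Lymphoid markers were low. The 5 tested T and NK cell markers summed to 8.8 and 12.7 CPM in vehicle and 5.25 and 5.13 CPM with the combination (1 higher, 2 lower). The 6 tested B cell markers summed to 28.5 and 28.1 CPM against 30.3 and 21.7 CPM (1 higher, 1 lower). Over all genes tested 18.4% were higher and 21.1% lower. Ifng, the interferon gamma gene, had 1, 1, 1 and 4 reads in vehicle replicates 1 and 2 and combined replicates 1 and 2 and did not pass the filter. The T cell gene Cd3e stood at 0.37 and 0.432 CPM in vehicle and 0.438 and 0.919 CPM with the combination.

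**Figure D2:**
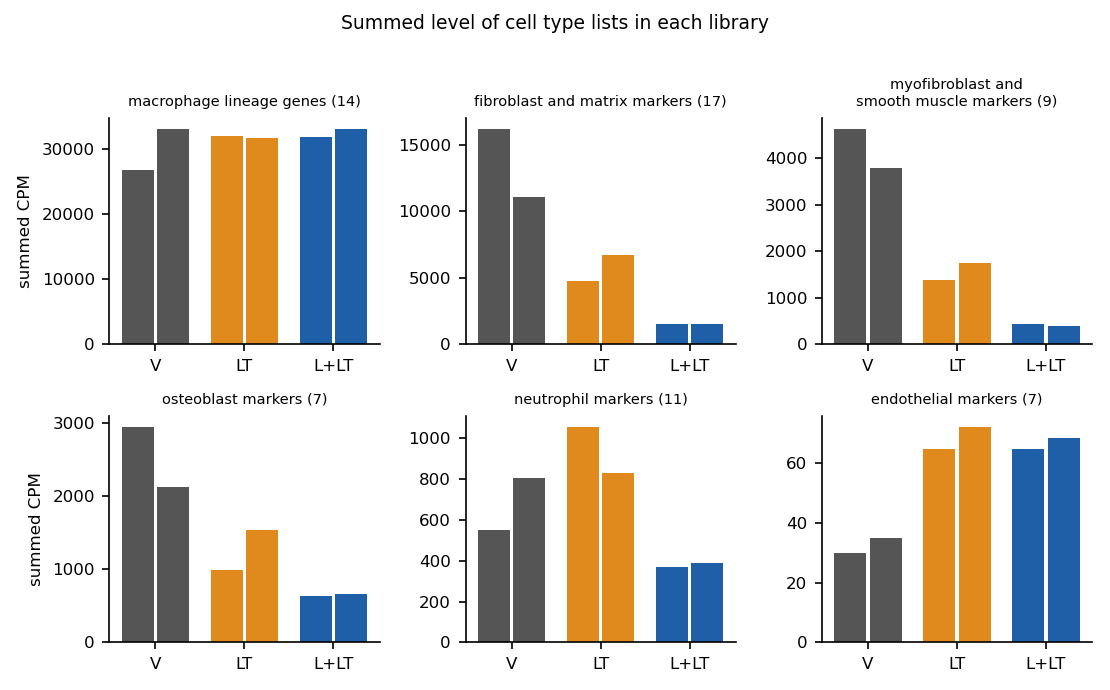
Summed CPM of the tested members of 6 cell type lists in each library (vertical axes start at 0), as paired bars for replicates 1 and 2 of vehicle (V), LTα1β2 (LT) and LCL161 plus LTα1β2 (L+LT), with the number of members in parentheses. The fibroblast sum falls from 16214 and 11072 CPM in vehicle to 1553 and 1491 CPM with the combination, while the macrophage lineage sum goes from 26789 and 33094 CPM to 31912 and 33163 CPM.

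Genes of the cIAP and TRAF complex rose with the combination. Birc3, which encodes cIAP2, was at 40.0 and 40.5 CPM in vehicle, 74.9 and 75.4 CPM with LTα1β2 and 205 and 206 CPM with LCL161 plus LTα1β2 (log2 change against vehicle 2.35, SE 0.092, edgeR adjusted p = 1.9e-06). Its neighbour Birc2, which encodes cIAP1, went from 24.5 and 24.1 CPM to 58.2 and 56.5 CPM (1.24, SE 0.10, adjusted p = 6.5e-05). Both combined libraries lay above all other libraries for each of these genes. The adaptor gene Traf2 rose from 33.5 and 32.2 CPM to 75.5 and 83 CPM and Traf3 from 28.8 and 27.1 CPM to 56.9 and 65.7 CPM. Traf1, an adaptor that is itself an NF-kB target, had a much larger increase, from 3.8 and 4.76 CPM through 6.96 and 11.4 CPM with LTα1β2 to 221 and 249 CPM (log2 change 5.78, SE 0.25, adjusted p = 2.68e-06). Cd40, the receptor for the T cell ligand CD154, rose further still: it was at 5.6 and 4.0 CPM in vehicle, 32.4 and 41.5 CPM with LTα1β2 and 578 and 656 CPM with the combination (7.0, SE 0.22, adjusted p = 7.7e-07). Tnfrsf14, the receptor for the related ligand LIGHT, rose from 4.17 and 4.38 CPM to 31.3 and 33.5 CPM. The lymphotoxin beta receptor gene Ltbr did not pass, with 74.4 and 76.9 CPM in vehicle and 71.5 and 80.6 CPM with the combination (log2 change 0.0085, 95% interval -0.22 to 0.24), and its log2 change was -0.30 under total-count scaling, where it passed as lower (adjusted p = 0.0281). Xiap, another inhibitor of apoptosis gene, did not pass either (10.6 and 10.7 against 14.2 and 12.6 CPM). Of 20 genes of the receptor, cIAP and NIK machinery, 15 rose and only Otud7b, a TRAF3 deubiquitinase, fell (28.1 and 22.8 to 14.4 and 11.1 CPM). The median log2 change of the list was 1.13, beside 0.047 for all genes tested. Map3k14, the NIK gene, passed narrowly (16.5 and 17.4 to 22.6 and 22.3 CPM, log2 change 0.41, adjusted p = 0.0274), and its adjusted p was 0.544 under total-count scaling, 0.0659 with DESeq2 and up to 0.221 (without vehicle replicate 1) when single libraries were left out.

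Among the NF-kB subunits the largest increases were those of the noncanonical pair, Nfkb2 and Relb. Nfkb2 went from 67.2 and 70.8 CPM in vehicle and 76.7 and 85.3 CPM with LTα1β2 to 363 and 414 CPM with the combination (log2 change 2.49, SE 0.11, edgeR adjusted p = 3.59e-06). Relb, its partner, went from 31.1 and 35.4 CPM and 46.2 and 50.3 CPM to 149 and 197 CPM (2.38, SE 0.16, adjusted p = 1.71e-05). In both genes the combined libraries stood clear of the other libraries, while vehicle and LTα1β2 lay close together. Rel, which encodes c-Rel of the classical branch, rose from 21.2 and 23.2 CPM to 42 and 39.7 CPM. Nfkb1 did not pass (14.6 and 21 against 22.2 and 26.8 CPM, log2 change 0.46, 95% interval 0.023 to 0.90), although without vehicle replicate 2 it did (adjusted p = 0.0357). Rela was spread in the combined group, at 93.6 and 252 CPM against 69.9 and 77.4 CPM in vehicle. Its adjusted p of 0.0354 missed the threshold in 8 alternatives, with values up to 0.154 without vehicle replicate 1, and it was 0.138 without combined replicate 2, where the log2 change was 0.28 in place of 1.23. The kinases Tbk1 and Ikbke, which also serve interferon induction, rose from 88.4 and 93.6 CPM to 197 and 193 CPM and from 82 and 84.1 CPM to 168 and 200.1 CPM. In all, 8 of 10 subunit and kinase genes rose and 0 fell (median log2 change 0.99). Of the 6 that rose and have a promoter entry, 5 hold a kappaB match in the window, beside 25.9% of tested genes. Nfkb2, shown above, holds a match and an overlapping pair close to the RefSeq start used.

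The inhibitors that NF-kB induces against itself rose as well. Nfkbia, the gene for IkB alpha, went from 123 and 149.8 CPM in vehicle and 153 and 179 CPM with LTα1β2 to 706 and 881 CPM (log2 change 2.54, SE 0.16, edgeR adjusted p = 1.44e-05). Tnfaip3, which encodes the ubiquitin-editing enzyme A20, went from 57.2 and 54.8 CPM and 51.8 and 66.6 CPM to 291 and 310.5 CPM (2.43, SE 0.14, adjusted p = 8.79e-06). For Nfkbie, the gene for IkB epsilon, the step was from 25.7 and 28.8 CPM and 44.9 and 53.4 CPM to 292 and 324 CPM (3.5, SE 0.13, adjusted p = 1.72e-06). With LTα1β2 alone Nfkbia and Tnfaip3 lay around the vehicle range, and with the combination all 3 genes were far above it. The A20-binding genes Tnip1 and Tnip3 rose from 44.3 and 49.5 CPM to 169 and 184 CPM and from 40.6 and 37.8 CPM to 142 and 128 CPM. Together 10 of 11 genes of this group rose and 0 fell, with a median log2 change of 1.85. A kappaB match was present in 6 of the 9 with a promoter entry, among them the match of Nfkbia shown above. Genes known as noncanonical targets did not move in 1 direction: of 4 tested 2 rose and 2 fell, and with no filter beyond 1 read 4 of 8 rose. Of 8 listed, Cxcl13, Ccl19, Ccl21a and Madcam1, which act in lymphoid tissue, did not pass the filter. Vcam1, an adhesion molecule, rose from 45.4 and 62.3 CPM to 595 and 559 CPM and Tnfsf13b, the B cell factor BAFF, from 0.694 and 0.865 CPM to 5.18 and 2.91 CPM. Cxcl12, a chemokine of stromal cells, fell from 369.8 and 197 CPM to 17.4 and 15.3 CPM and Tnfsf11, the osteoclast factor RANKL, from 3.38 and 3.08 CPM to 0.292 and 0.306 CPM. The combined values of Tnfsf11 lie close to the level of 3 reads (0.218 and 0.229 CPM in combined replicates 1 and 2), so the size of its fall is uncertain. The fibroblast marker sum was lower in the same libraries, and whether this had a part in the fall of Cxcl12 and Tnfsf11 was not tested.

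**Figure D3:**
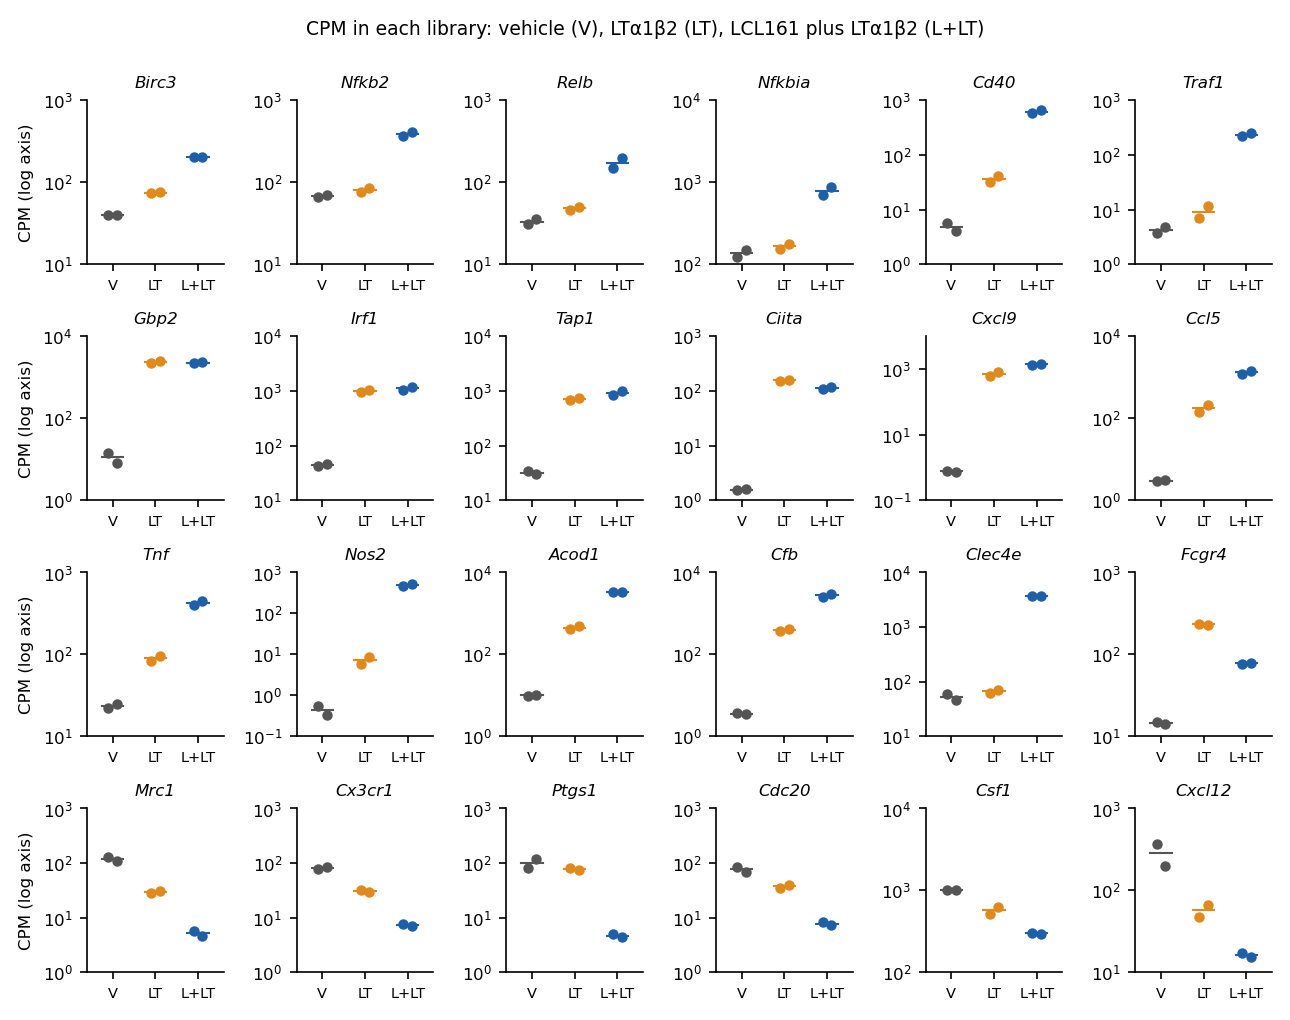
CPM of 24 genes in each library on log axes, with points for replicates 1 and 2 and a short line for their mean, in vehicle (V), LTα1β2 (LT) and LCL161 plus LTα1β2 (L+LT). Cd40, Traf1, Nos2 and Clec4e stand highest with the combination, Gbp2 and Irf1 are level between the LTα1β2 and combined groups, and Mrc1, Cx3cr1, Cdc20 and Csf1 fall from group to group.

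Interferon-response genes rose in every tested member of 2 lists. All 18 interferon-inducible GTPases tested, which attack vacuoles that hold pathogens, rose, with a median log2 change of 6.19. Gbp2 went from 14 and 8.32 CPM in vehicle to 2273 and 2343 CPM (log2 change 7.68, SE 0.26, edgeR adjusted p = 1.02e-06), Gbp4 from 0.926 and 0.595 CPM to 671 and 676 CPM (9.76, SE 0.19, adjusted p = 9e-08) and Irgm1 from 77.1 and 62.8 CPM to 1138 and 1187 CPM (4.05, SE 0.13, adjusted p = 9.05e-07). With LTα1β2 alone Gbp2 stood at 2292 and 2449 CPM, Gbp4 at 699.7 and 766 CPM and Irgm1 at 1286 and 1318 CPM, so that the combined libraries lay within or close below that range. Gbp5, a GTPase that promotes inflammasome assembly, was at 2.45 and 0.595 CPM in vehicle, 279 and 321 CPM with LTα1β2 and 1093 and 779.5 CPM with the combination. Its log2 change of 9.21 was 10.55 without vehicle replicate 1 and 8.52 without replicate 2. Gbp4 shares exon bases with Gbp8 and Gbp9 of its own strand, and counts of Gbp4 and Irgm1 were not whole in any library, so their division among related genes is uncertain. All 10 GTPase genes with a promoter entry hold an ISRE match in the window, and 6 hold a GAS match.

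All 32 genes of the type I interferon program tested also rose (median log2 change 3.62). Isg15, a ubiquitin-like antiviral protein, was at 14.7 and 3.4 CPM in vehicle, 51.6 and 63.3 CPM with LTα1β2 and 240.4 and 273 CPM with the combination. Ifit1, which binds foreign RNA, was at 11.9 and 1.95 CPM, 61.8 and 75.7 CPM and 306 and 334 CPM, and the antiviral GTPase gene Mx1 at 3.06 and 0.27 CPM, 13.5 and 18.7 CPM and 82.5 and 76.7 CPM. In all 3 genes vehicle replicate 1 was several times as high as replicate 2, and both were below every treated library. The log2 change of Isg15 was 4.8 with all libraries, 6.18 without vehicle replicate 1 and 4.08 without replicate 2, that of Ifit1 5.51, 7.3 and 4.7, and that of Mx1 5.52, 8.11 and 4.65. Parp14 and Herc6 were even between replicates, at 39.3 and 29.7 CPM against 612 and 546 CPM and 14 and 10.2 CPM against 193 and 182 CPM. Of 24 genes of this program with a promoter entry, 14 hold an ISRE match, which in Isg15 is a run of overlapping matches. Among the 404 genes that rose at least 8-fold, 252 have an entry and 18.7% of these hold an ISRE match, beside 4.33% of the 208 with an entry that fell as much.

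The transducers of interferon signals rose as well. Irf1, a transcription factor that interferon gamma induces, went from 42.2 and 45.6 CPM to 1068 and 1173 CPM (log2 change 4.68, SE 0.12, edgeR adjusted p = 3.83e-07). The LTα1β2 libraries held 945 and 1034 CPM of Irf1, near the combined levels. Irf8, a factor of mononuclear phagocytes, rose from 113 and 151 CPM to 343 and 393 CPM, Stat2 from 40.1 and 34.5 CPM to 223 and 228 CPM and the kinase gene Tyk2 from 79.7 and 84.2 CPM to 245 and 267 CPM. Socs3, an inhibitor of cytokine receptors, rose from 13.4 and 12.9 CPM in vehicle and 76.9 and 90.1 CPM with LTα1β2 to 181 and 222 CPM. In total 16 of 18 receptor, kinase, STAT and IRF genes rose and 0 fell (median log2 change 1.48). The Irf1 window shown above holds a GAS match and 2 kappaB matches.

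Antigen presentation genes followed the same direction. Every one of 21 genes of MHC class I presentation rose, with a median log2 change of 3.33. Tap1, a subunit of the peptide transporter, went from 34 and 29.9 CPM to 857 and 1006 CPM (log2 change 4.86, SE 0.14, edgeR adjusted p = 6.39e-07). B2m, the invariant light chain, went from 1091 and 1124 CPM to 6104 and 5899 CPM (2.44, SE 0.10, adjusted p = 2.47e-06), and Nlrc5, the transactivator of class I genes, from 18.6 and 13.4 CPM to 256 and 235 CPM. Psme2, a proteasome activator subunit, stood at 99.8 and 87.1 CPM in vehicle, 528 and 562 CPM with LTα1β2 and 1143 and 1223 CPM with the combination. A kappaB match was present in 11 of 18 class I genes with a promoter entry and a CCAAT box in 13. Of 12 class II genes 11 rose (median 4.51). Ciita, their master regulator, went from 1.53 and 1.62 CPM to 110.5 and 119 CPM (6.18, SE 0.13, adjusted p = 1.64e-07), and H2-Ab1, a class II chain, from 64.9 and 118 CPM to 2865 and 3521 CPM. Lgmn, an endosomal protease of the same list, was the only member that fell, from 553 and 633 CPM to 237 and 243 CPM.

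Costimulatory and checkpoint genes divided. Cd274, the gene for the checkpoint ligand PD-L1, rose from 31.6 and 42.3 CPM through 686 and 596 CPM with LTα1β2 to 1614 and 1638 CPM (log2 change 5.46, SE 0.18, edgeR adjusted p = 8.67e-07). Cd86, a ligand of the T cell costimulatory receptor CD28, rose from 10.6 and 12.6 CPM through 57.8 and 51.3 CPM to 119 and 122 CPM (3.38, SE 0.13, adjusted p = 1.76e-06), and Slamf7, a receptor linked to phagocytosis, from 61.2 and 71.8 CPM to 646 and 597 CPM. The other CD28 ligand, Cd80, fell from 11.8 and 10.1 CPM to 5.4 and 6.66 CPM. Havcr2, the gene for the checkpoint receptor TIM-3, was at 29.9 and 34.1 CPM in vehicle and 42.2 and 31.8 CPM with LTα1β2 and fell to 5.98 and 5.05 CPM (-2.53, SE 0.19, adjusted p = 3.38e-05). Vsir, the gene for the checkpoint protein VISTA, fell from 296 and 359.8 CPM to 107 and 115 CPM, Cd276 from 22.9 and 17.4 CPM to 4.74 and 3.83 CPM, and Vsig4, a complement receptor that restrains T cells, from 7.82 and 13 CPM to 1.31 and 1.76 CPM. Of 17 genes tested 11 rose and these 5 fell (Cd80, Havcr2, Vsir, Cd276 and Vsig4), with a median log2 change of 1.39.

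**Figure D4:**
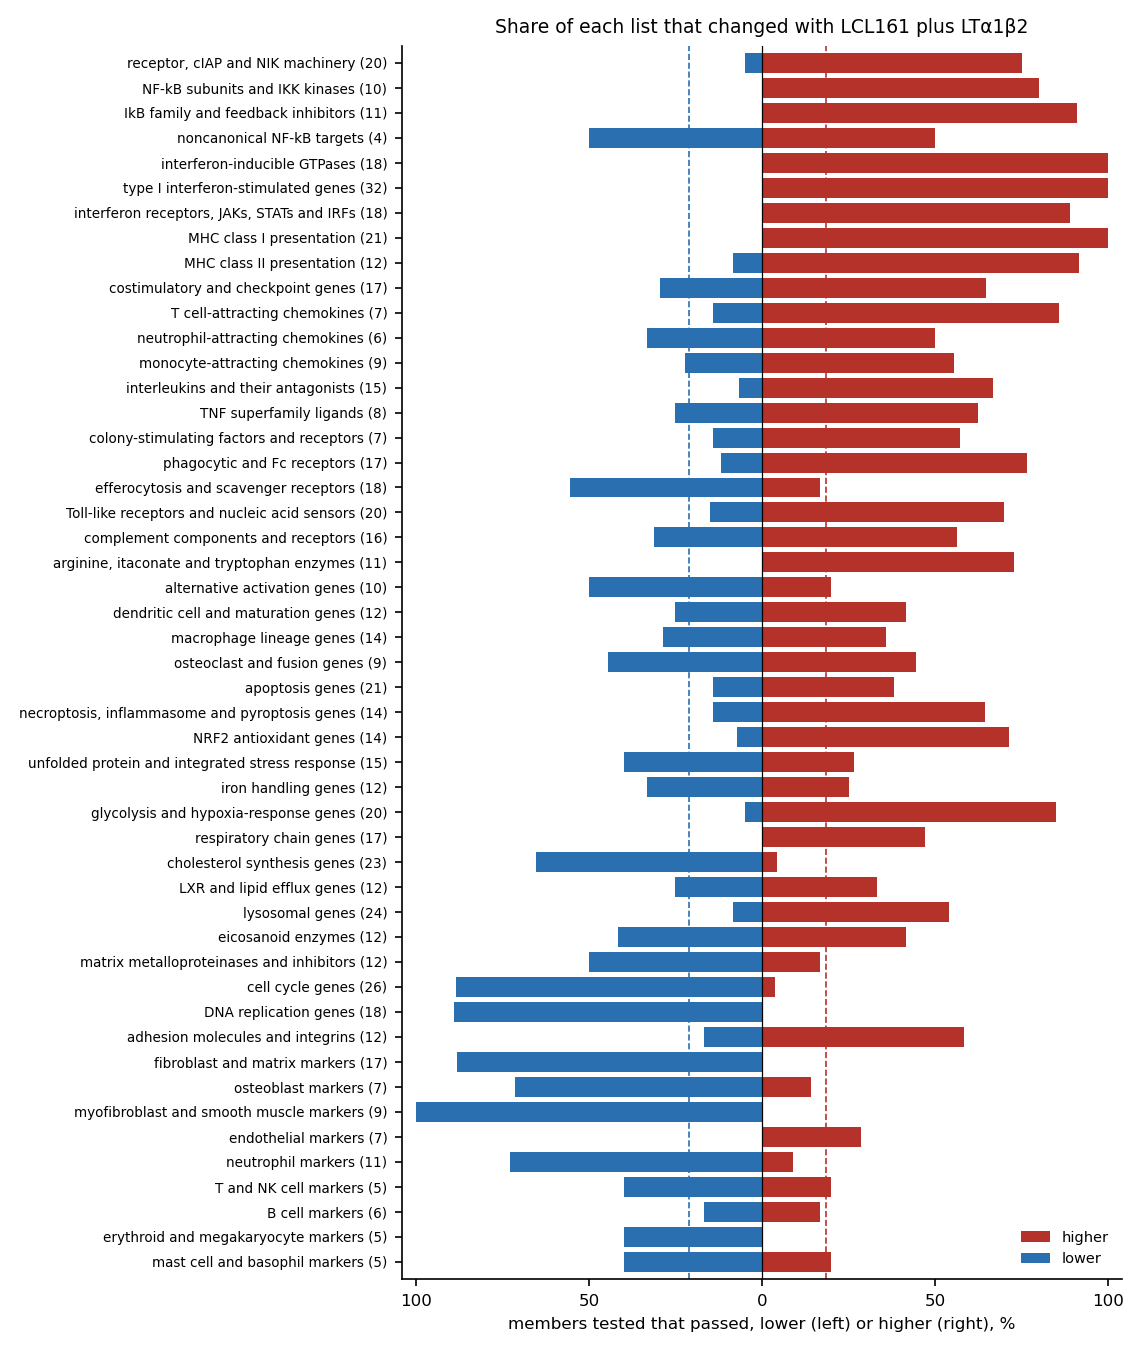
Share of the tested members of each list that passed edgeR's test with LCL161 plus LTα1β2 against vehicle, higher to the right and lower to the left, with the number tested in parentheses and dashed lines at the shares over all genes tested (18.4% higher, 21.1% lower). The interferon-inducible GTPase, type I interferon and MHC class I lists reach 100% higher, while stromal, cell cycle and DNA replication lists lie almost wholly on the lower side.

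Chemokines that attract T cells were among the most strongly raised genes. Cxcl9 went from 0.787 and 0.757 CPM in vehicle through 611 and 821 CPM with LTα1β2 to 1386 and 1441 CPM (log2 change 10.82, SE 0.24, edgeR adjusted p = 1.95e-07), and Ccl5 from 2.92 and 3.13 CPM through 141 and 209.6 CPM to 1210.0 and 1443 CPM (8.77, SE 0.27, adjusted p = 7.11e-07). Cxcl10 stood at 2.55 and 0.324 CPM, 187 and 274 CPM and 761 and 809 CPM. Its log2 change was 9.03 with all libraries, 11.16 without vehicle replicate 1 and 8.22 without replicate 2, and its region shown above holds an ISRE and a kappaB match. Ccl22, which draws T cells that carry CCR4, had 3 reads over both vehicle libraries against 918 with the combination. After scaling for library size this was 458 times as many, with a 95% interval from 156 to 2224 that covers counting error only. With LTα1β2 alone Ccl22 was at 0.574 and 0.374 CPM, far under the combined 31.9 and 36.8 CPM. GENCODE M21 annotates Cxcl11 as a polymorphic pseudogene, and whether it encodes a protein in these mice, whose strain is not given, was not tested. It had 2 vehicle reads against 508, a ratio after scaling of 380.0 (105 to 3146). Of 7 such chemokines 6 rose and Ccl17 fell, from 1.53 and 1.62 CPM to 0.292 and 0 CPM, and its call (adjusted p = 0.0129) was lost without vehicle replicate 1 (0.0506) or 2 (0.051). The log2 change of Ccl17, -3.34, was -2.47 without combined replicate 2 and -7.79 without replicate 1, where the remaining library had 0 reads.

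Chemokines for neutrophils and monocytes were mixed. Cxcl2, a neutrophil attractant, was at 17.7 and 19.9 CPM in vehicle, 3.45 and 3.31 CPM with LTα1β2 and 35.6 and 38.3 CPM with the combination, so that the LTα1β2 libraries lay lowest and the combined libraries highest (log2 change against vehicle 0.98, SE 0.12, edgeR adjusted p = 0.000563). The related Cxcl3 was at 1.06 and 2.49 CPM, 0.638 and 0 CPM and 13.8 and 11.3 CPM. Its adjusted p of 0.00388 was 0.142 with DESeq2, and its log2 change of 2.84 was 3.5 without vehicle replicate 2. Pf4, the platelet factor gene that macrophages also express, fell from 405 and 454 CPM to 247 and 229 CPM. Of the 6 genes in the neutrophil attractant list, which also holds Pf4, 3 rose (Cxcl1, Cxcl2 and Cxcl3) and 2 fell, Pf4 and its relative Ppbp. The call for Ppbp (edgeR adjusted p = 0.0163) was lost without vehicle replicate 2, and its log2 change of -2.31 was -3.64 and -1.71 without combined replicates 1 and 2. Of 9 monocyte attractants 5 rose (Ccl2, Ccl3, Ccl4, Ccl8 and Ccl12) and 2 fell. Of the related Ccl3 and Ccl4, Ccl3 rose from 17.7 and 16.3 CPM to 43.3 and 44.4 CPM and Ccl4 from 13.1 and 9.94 CPM to 40.0 and 48.2 CPM. Ccl8 had 2 vehicle reads against 431, a ratio after scaling of 322 (88.7 to 2670.4). Those that fell were Ccl6, from 139 and 155 CPM to 21.5 and 20.7 CPM, and Cx3cl1, from 57.4 and 63.7 CPM to 28.4 and 32.9 CPM.

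Among cytokines, Tnf went from 22 and 25.1 CPM through 82.6 and 96.1 CPM with LTα1β2 to 399.9 and 448 CPM (log2 change 4.17, SE 0.14, edgeR adjusted p = 9.18e-07). Il12b, which encodes the shared chain of the cytokines that drive T helper responses, went from 0.0926 and 0.162 CPM to 10.3 and 13.7 CPM (6.5, SE 0.38, adjusted p = 1.1e-05), and Il27 from 1.06 and 1.08 CPM to 45.8 and 48.2 CPM (5.44, SE 0.17, adjusted p = 7.96e-07). The vehicle values of Il12b lie at or under the level of 3 reads (0.138 and 0.162 CPM in vehicle replicates 1 and 2), so the size of its change is uncertain. Il1a, a pyrogenic interleukin gene, was at 3.98 and 6.49 CPM in vehicle, 3.57 and 3.85 CPM with LTα1β2 and 81.9 and 86.1 CPM with the combination, and its relative Il1b at 10.1 and 12.5 CPM, 16.3 and 16.1 CPM and 57.8 and 76.6 CPM. Il15, which sustains cytotoxic T cells and NK cells, rose from 6.39 and 7.67 CPM to 39.9 and 41.7 CPM. Il10, the anti-inflammatory interleukin, stayed under 1 CPM in every library (0.926 and 0.595 against 0.584 and 0.306 CPM) and did not pass. Of 15 interleukin genes 10 rose and only Osm fell, from 12.7 and 20.5 CPM to 4.45 and 5.36 CPM (median log2 change 2.54). Of 8 TNF superfamily ligands tested 5 rose and 2 fell, Tnfsf13 (the plasma cell factor APRIL) from 11.5 and 14.6 CPM to 3.94 and 4.6 CPM and Tnfsf12 from 9.63 and 10.4 CPM to 4.74 and 6.36 CPM. The call for Tnfsf12 (adjusted p = 0.0262) was lost without vehicle replicate 1 (0.0589), vehicle replicate 2 (0.0842) or combined replicate 1 (0.103). Tnfsf10, the death ligand TRAIL, rose from 0.926 and 0.216 CPM to 26 and 25.8 CPM, by a log2 change of 5.43, 6.8 without vehicle replicate 1 and 4.75 without replicate 2. Lta, a subunit of lymphotoxin itself, had 2 vehicle reads against 45, a ratio after scaling of 33.7 (8.79 to 286). Both vehicle reads of Lta were in replicate 2, and its log2 change of 4.9 was 3.84 without vehicle replicate 1 and 7.8 without replicate 2, where the remaining library had 0 reads. Csf1, the macrophage growth factor, fell from 1023 and 1022 CPM through 513 and 635 CPM to 306 and 291 CPM (-1.78, SE 0.12, adjusted p = 2.23e-05), while the receptor chain genes Csf2rb and Csf2ra rose, Csf2rb from 185 and 220.5 CPM to 655 and 689 CPM and Csf2ra from 137 and 193 CPM to 293 and 373 CPM.

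Enzymes that make nitric oxide and itaconate rose steeply. Nos2, the inducible nitric oxide synthase on chromosome 11 at 78920787 to 78960254 (GRCm38, GENCODE M21), was at 0.556 and 0.324 CPM in vehicle and 5.74 and 8.77 CPM with LTα1β2 and reached 456 and 518 CPM with the combination (log2 change 10.06, SE 0.29, edgeR adjusted p = 5.98e-07). Acod1, which makes the antimicrobial metabolite itaconate and lies on chromosome 14 at 103046977 to 103056573, went from 9.86 and 10.2 CPM through 424 and 481 CPM to 3270.1 and 3312 CPM (8.36, SE 0.14, adjusted p = 9e-08). Gch1 makes the tetrahydrobiopterin that Nos2 needs, and it rose from 20.1 and 21 CPM and 19.7 and 21.5 CPM to 107 and 113 CPM (2.42, SE 0.11, adjusted p = 3.14e-06). Ass1, which regenerates arginine, rose from 6.3 and 12.4 CPM to 104 and 105 CPM and Kynu, of tryptophan breakdown, from 0.324 and 0.54 CPM to 26.3 and 23 CPM. Arg1, the arginase of alternative activation, did not pass against vehicle, at 0.926 and 1.41 CPM and 1.82 and 1.99 CPM, with 6.0 and 4.76 CPM in the LTα1β2 libraries (net log2 change 0.72, 95% interval -0.024 to 1.46). Of 11 genes of arginine, itaconate and tryptophan metabolism 8 rose and 0 fell (median log2 change 2.42).

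Complement components mostly rose, while the receptor genes C5ar1, C5ar2 and C3ar1 fell. Cfb, factor B of the alternative pathway, on chromosome 17 at 34856374 to 34862518, went from 3.7 and 3.46 CPM through 377 and 415 CPM with LTα1β2 to 2573 and 3040.5 CPM (log2 change 9.61, SE 0.17, edgeR adjusted p = 9e-08), with exons that overlap the readthrough gene Gm20547 on the same strand. C3, the central component, went from 69 and 72.9 CPM through 554 and 645 CPM to 3593 and 3584 CPM (5.66, SE 0.13, adjusted p = 2.29e-07). C1qa rose from 427 and 478 CPM to 705 and 776 CPM and C4b from 0.185 and 0.216 CPM to 8.46 and 9.04 CPM, while the LTα1β2 libraries held 995 and 983 CPM of C1qa and 18.7 and 23.9 CPM of C4b. The vehicle values of C4b lie close to the level of 3 reads (0.138 and 0.162 CPM in vehicle replicates 1 and 2), so the size of its rise over vehicle is uncertain. C5ar1 went from 617 and 698 CPM to 276 and 286 CPM, C5ar2 from 10.3 and 12.7 CPM to 1.39 and 1.68 CPM and C3ar1 from 713 and 745 CPM to 392 and 373 CPM. Of 16 complement genes 9 rose and 5 fell, among them these 3 receptors and Cd55, a decay-accelerating factor (1.57 and 2.38 to 0.584 and 0.766 CPM), whose adjusted p of 0.0402 missed the threshold in 7 alternatives and reached 0.186 without vehicle replicate 2.

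Among prostanoid enzymes the inducible forms rose and the constitutive cyclooxygenase fell. Ptgs2, the inducible cyclooxygenase, was at 117 and 127 CPM in vehicle, 46.8 and 56 CPM with LTα1β2 and 597 and 609 CPM with the combination (log2 change 2.31, SE 0.12, edgeR adjusted p = 5.5e-06). Ptgs1, the constitutive cyclooxygenase on chromosome 2 at 36230426 to 36252272, was at 81 and 119 CPM in vehicle and 82.9 and 74.7 CPM with LTα1β2 and fell to 5.11 and 4.37 CPM (-4.39, SE 0.22, adjusted p = 5.51e-06). Ptges, the inducible synthase of prostaglandin E, rose from 14.6 and 16.6 CPM and 24.1 and 28.5 CPM to 767 and 892 CPM (5.73, SE 0.16, adjusted p = 4.47e-07), and Hpgds, the synthase of prostaglandin D, fell from 74.2 and 84.2 CPM to 22.8 and 28.3 CPM. The leukotriene synthesis gene Alox5 fell from 6.85 and 8.81 CPM to 1.31 and 1.46 CPM, Alox5ap from 69.1 and 77 CPM to 43.1 and 46 CPM and Lta4h from 69 and 63.8 CPM to 42 and 41 CPM. Pla2g4a, the phospholipase that releases arachidonate, rose from 53.1 and 53.5 CPM to 186 and 194 CPM. Over 12 eicosanoid genes tested 5 rose (also Ltc4s and Pla2g7) and 5 fell.

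Most Fc and phagocytic receptors rose, and most receptors and ligands for the removal of dead cells fell. Clec4e, the gene for the C-type lectin Mincle that binds mycobacterial glycolipid and dead cells, on chromosome 6 at 123281789 to 123289870, was at 59.2 and 46.2 CPM in vehicle and 63.3 and 69.9 CPM with LTα1β2 and stood at 3742 and 3751 CPM with the combination (log2 change 6.15, SE 0.16, edgeR adjusted p = 4.33e-07). Fcgr1, an activating Fc gamma receptor gene, was at 33.4 and 32.3 CPM in vehicle, 197 and 195 CPM with LTα1β2 and 101 and 108 CPM with the combination, and Fcgr4 at 14.9 and 14.1 CPM, 237 and 231 CPM and 77.4 and 79.5 CPM, so that both rose over vehicle and stood highest with the ligand alone. Itgax, a complement-receptor integrin, rose from 14.3 and 19.2 CPM to 108 and 94.2 CPM. Of 17 phagocytic and Fc receptor genes tested 13 rose and 2 fell, Lrp1 from 951 and 943 CPM to 305 and 321 CPM and Itgam from 299 and 326 CPM to 259 and 236 CPM. The call for Itgam (adjusted p = 0.0286) was lost without vehicle replicate 2 (0.0846), LTα1β2 replicate 1 (0.0613) or combined replicate 2 (0.0873). Of 18 genes for the removal of dead cells and for scavenging 10 fell (median log2 change -1.02). Mrc1, the mannose receptor on chromosome 2 at 14229392 to 14332057, went from 129 and 109 CPM through 28.3 and 30.6 CPM to 5.84 and 4.6 CPM (-4.51, SE 0.16, adjusted p = 1.41e-06). The bridging ligand gene Gas6 went from 268 and 293 CPM through 65 and 68.1 CPM to 16.6 and 18.7 CPM (-3.99, SE 0.12, adjusted p = 6.39e-07), and Mfge8, another bridging protein, from 607 and 558 CPM to 106 and 127 CPM. Fibroblasts also express bridging proteins, the fibroblast marker sum was lower in the same libraries, and whether this had a part in these decreases was not tested. Against this direction 3 members rose: Mertk, the receptor that Gas6 bridges to, from 158 and 195 CPM to 602 and 609 CPM, the scavenger receptor gene Marco from 168 and 172 CPM to 587 and 594 CPM and Msr1 from 287 and 296 CPM to 667 and 627 CPM.

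Sensors of microbial products mostly rose (14 of 20, median log2 change 1.43). Of the pair that senses lipopeptides, Tlr2 went from 139 and 147 CPM to 377 and 372 CPM and Tlr1 from 18.7 and 19.8 CPM to 119 and 111 CPM. Nod1, which senses peptidoglycan, went from 20.7 and 23.2 CPM to 135 and 141 CPM. Tlr12, a sensor of parasite profilin, had 3 vehicle reads against 641 with the combination, a ratio after scaling of 319.6 (109 to 1554). Its 21.8 and 26.2 CPM with the combination were under the 52.8 and 51.2 CPM of LTα1β2 alone. The 3 that fell were Tlr5, from 1.62 and 1.89 CPM to 0.292 and 0.153 CPM, Tlr8, from 65.7 and 75.8 CPM to 33.6 and 27.2 CPM, and Tlr13, from 303 and 316 CPM to 175 and 156 CPM. The combined values of Tlr5 lie close to or under the level of 3 reads (0.218 and 0.229 CPM in combined replicates 1 and 2), so the size of its fall is uncertain.

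Lineage genes did not move together. Of 14 macrophage lineage genes 5 rose and 4 fell, and their median log2 change of 0.083 was -0.23 under total-count scaling. The number that rose was 3 when either vehicle library was left out. Adgre1, the gene for F4/80, rose from 1406 and 1407 CPM to 2841 and 2800.4 CPM, and Ly6c2, a marker of inflammatory monocytes, from 8.01 and 9.46 CPM to 82.3 and 84.4 CPM. Cx3cr1, the fractalkine receptor gene, fell from 78 and 86.4 CPM through 32.3 and 29.2 CPM with LTα1β2 to 7.59 and 7.2 CPM (log2 change -3.47, SE 0.13, edgeR adjusted p = 1.58e-06). Trem2, a lipid receptor of tissue macrophages, fell from 328 and 405 CPM to 192 and 218 CPM, and the transcription factor gene Maf from 29.1 and 33.6 CPM to 10.7 and 12.5 CPM. The other genes that rose were Spi1, Cebpb and Mpeg1. Of 10 tested genes of alternative activation 5 fell (Pparg, Fcrls, Clec10a, Myc and Chil3) and 2 rose, with 3 lower without combined replicate 1. The adjusted p of Chil3 was 0.041 and reached 0.168 without vehicle replicate 2. Pparg, the lipid-sensing nuclear receptor gene, fell from 32.5 and 26.5 CPM and 18.6 and 21.3 CPM to 3.21 and 3.83 CPM (-3.07, SE 0.18, adjusted p = 1.14e-05), and Fcrls, an Fc receptor-like gene, from 128 and 126 CPM to 23.8 and 25.9 CPM. The 2 that rose were Tgm2, a transglutaminase gene, at 276 and 299 CPM in vehicle, 1784 and 1764 CPM with LTα1β2 and 653 and 739 CPM with the combination, and the transcription factor gene Egr2, at 16.9 and 17.7 CPM, 9.51 and 6.9 CPM and 48.8 and 56.5 CPM. Retnla, Mgl2, Ccl24 and Lyve1, further markers of that state, did not pass the filter.

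Genes of dendritic cell maturation and of cell fusion were also divided. Ccr7, the homing receptor of mature dendritic cells, had 0.278 and 0.486 CPM in vehicle and 2.26 and 2.07 CPM with the combination and did not pass (adjusted p = 0.081), although it passed with limma voom (0.042), with no filter beyond 1 read (0.000143), with only the 2 groups compared (0.00466) and without LTα1β2 replicate 1 (0.00591) or 2 (0.0054). Fscn1, an actin bundler of the same program, fell from 215 and 170.1 CPM to 32 and 27 CPM. Apol7c, an apolipoprotein L gene of dendritic cells, had 2 vehicle reads against 1735, a ratio after scaling of 1298 (359 to 10724). Both vehicle reads of Apol7c were in replicate 1, and its log2 change of 10.15 was 9.29 without vehicle replicate 2 and 12.98 without replicate 1, where the remaining library had 0 reads. Marcksl1, a regulator of actin, rose from 117 and 108 CPM to 701 and 874 CPM. Of 12 genes in the list 5 rose (also Flt3, Xcr1 and Batf3) and 3 fell (also Socs2 and Cacnb3), and 2 rose without vehicle replicate 1 and 3 without vehicle replicate 2, combined replicate 1 or combined replicate 2. The fusion receptor gene Dcstamp rose from 3.01 and 5.46 CPM to 47.4 and 40.4 CPM and Ocstamp from 1.53 and 1.46 CPM to 16.7 and 23.7 CPM, while the osteoclast protease gene Ctsk fell from 36.4 and 28.3 CPM to 7.08 and 7.35 CPM and Nfatc1, the master regulator of osteoclasts, from 97.3 and 92.7 CPM to 63.5 and 65.1 CPM. In the osteoclast list 4 of 9 rose (also Acp5 and Tnfrsf11a) and 4 fell (also Atp6v0d2 and Itgb3). Among adhesion molecules, where 7 of 12 rose, Icam1 went from 65.5 and 75.9 CPM through 310.4 and 327 CPM to 1399.5 and 1660.3 CPM (4.43, SE 0.14, edgeR adjusted p = 7.96e-07), and 2 fell, the endothelial and myeloid adhesion gene Pecam1 from 6.53 and 6.22 CPM to 2.85 and 2.68 CPM and the integrin gene Itgb1 from 1495 and 1449 CPM to 1018 and 945 CPM.

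Apoptosis genes were divided. Bcl2a1a and Bcl2a1d are near-identical copies of a survival gene of myeloid cells between which reads may be shared. Bcl2a1a was at 3.15 and 3.46 CPM, 3.19 and 4.17 CPM and 62.5 and 63.5 CPM and Bcl2a1d at 5.23 and 5.51 CPM, 5.11 and 6.79 CPM and 69.4 and 69.6 CPM, with the LTα1β2 libraries close to vehicle. Cflar, which encodes the caspase-8 inhibitor FLIP, rose from 81.4 and 82.3 CPM and 94.4 and 117 CPM to 449 and 433 CPM (log2 change 2.43, SE 0.12, edgeR adjusted p = 5.51e-06). Casp8 itself did not pass (74.3 and 85.8 against 89 and 86.3 CPM, log2 change 0.13, 95% interval -0.12 to 0.38), and its sign turned under total-count scaling (-0.18). Mcl1, another survival gene, was at 49.8 and 56.9 CPM in vehicle, 520.2 and 497 CPM with LTα1β2 and a widely spread 147 and 449 CPM with the combination, and its log2 change of 2.48 was 1.4 without combined replicate 2. Of 21 apoptosis genes tested 8 rose and 3 fell, the BH3-only gene Pmaip1 from 40.4 and 37.2 CPM to 15.3 and 11.8 CPM, the TRAIL receptor gene Tnfrsf10b from 12.5 and 11.7 CPM to 4.31 and 4.75 CPM, and Bcl2l1 from 69.6 and 64.8 CPM to 44.8 and 52.3 CPM. The adjusted p of Bcl2l1, 0.0125, was 0.0714 without vehicle replicate 1 and 0.0526 without combined replicate 1, and total-count scaling called 8 members lower and turned the median log2 change from 0.25 to -0.066.

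Of 14 necroptosis, inflammasome and pyroptosis genes 9 rose and 2 fell (median log2 change 1.5). Casp1, the inflammasome caspase, went from 26.9 and 28.6 CPM to 189.7 and 179.7 CPM (log2 change 2.73, SE 0.10, edgeR adjusted p = 1.58e-06), Casp4, which senses cytosolic lipopolysaccharide, from 5.97 and 3.73 CPM to 69.9 and 69.2 CPM, Nlrp3 from 14.6 and 13.8 CPM to 87.1 and 88.8 CPM and the pore gene Gsdmd from 49.4 and 52.3 CPM to 232 and 268 CPM. The necroptosis genes parted: Mlkl, the executioner, rose from 19.8 and 15.5 CPM to 79.8 and 78.9 CPM, and Ripk3, the kinase that activates it, fell from 42.7 and 42.6 CPM to 22.3 and 25 CPM (-0.85, SE 0.11, adjusted p = 0.000673). Gsdme was the other member that fell, from 20.1 and 19.6 CPM to 9.85 and 10.9 CPM.

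Several redox and iron genes changed, some of them at high abundance. Slc7a11, the cystine transporter that feeds glutathione synthesis, was at 42.1 and 54.9 CPM in vehicle and 47 and 50.1 CPM with LTα1β2 and stood at 865 and 834 CPM with the combination (log2 change 4.13, SE 0.15, edgeR adjusted p = 1.34e-06). Prdx1, a peroxide-reducing enzyme, went from 2518 and 3055 CPM through 6170.4 and 5781 CPM to 18522 and 17880.4 CPM (2.71, SE 0.14, adjusted p = 5.5e-06), Sod2, the mitochondrial superoxide dismutase, from 149 and 161 CPM to 1833 and 1929 CPM (3.6, SE 0.11, adjusted p = 7.95e-07) and Hmox1, which degrades heme, from 747 and 1054 CPM to 2771 and 2894 CPM. Nqo1 was the only one of 14 NRF2 antioxidant genes that fell, from 60.8 and 77.9 CPM to 26 and 35.4 CPM, while 10 rose. Fth1, the heavy chain of the iron store ferritin, rose from 11845 and 16147 CPM to 33030.0 and 34841 CPM (1.28, SE 0.16, adjusted p = 0.00058). Tfrc, the transferrin receptor for iron uptake, fell from 176 and 176 CPM through 55.3 and 48.8 CPM to 36 and 36.9 CPM, and Slc40a1, the iron exporter ferroportin, from 541 and 769 CPM to 233 and 226 CPM. Of 12 iron genes tested 3 rose (also Slc11a1 and Slc11a2) and 4 fell (also Hfe and Steap3), beside 18.4% higher and 21.1% lower over all genes tested. The median log2 change of the iron list was 0.05, and -0.26 under total-count scaling, so the list as a whole showed no clear direction.

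Glycolysis genes mostly rose and cholesterol synthesis genes mostly fell, by smaller factors than the immune genes above. Of 20 glycolysis and hypoxia-response genes 17 rose (median log2 change 0.85), among them Hif1a, the hypoxia factor, from 238 and 229.8 CPM to 599 and 561 CPM, the glucose transporter gene Slc2a1 from 108 and 110.4 CPM to 241 and 257 CPM and Pfkfb3, an activator of glycolysis, from 27.2 and 32.4 CPM to 99.2 and 111 CPM. Vegfa, the growth factor of blood vessels, was the only member that fell, from 209 and 222 CPM to 133 and 154 CPM. Of 17 respiratory chain genes 8 rose and 0 fell, and their median log2 change, 0.27, became -0.04 with total-count scaling, where 4 rose and 4 fell. Without vehicle replicate 2 the number that rose was 5. Cholesterol synthesis genes fell in 15 of 23 cases (median -0.58). Sqle, which makes squalene epoxide, fell from 99.8 and 96.8 CPM to 47.9 and 48.7 CPM (log2 change -1.02, SE 0.092, edgeR adjusted p = 9.06e-05), and Cyp51 from 97 and 95.2 CPM to 43.2 and 42.3 CPM (-1.17, SE 0.094, adjusted p = 4.97e-05). Mvd was the only member higher (26.4 and 31.2 to 38.5 and 48.5 CPM), and its adjusted p of 0.0175 was 0.123 with total-count scaling, 0.17 and 0.0501 without vehicle replicates 1 and 2 and 0.124 without combined replicate 2. All 10 of the lower members with a promoter entry hold a CCAAT box, and 1 holds an SRE match. The oxysterol receptor gene Nr1h3 rose from 30.7 and 36.3 CPM to 143 and 193 CPM and the desaturase gene Scd2 fell from 157 and 121 CPM to 24.2 and 24.7 CPM. Among lysosomal genes Ctsc, which activates serine proteases, rose from 478 and 487 CPM to 5255 and 5369 CPM and Ctsz from 829 and 989 CPM to 2893 and 3372 CPM, while Ctsl fell from 849 and 910.4 CPM to 303 and 288 CPM and Ctsd from 10571 and 13658 CPM to 6516 and 7132 CPM. In that list 13 of 24 rose, but 6 rose and 5 fell under total-count scaling, and 6 rose without vehicle replicate 1 and 8 without combined replicate 2.

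Proliferation genes fell. Of 26 cell cycle genes 23 were lower, with a median log2 change of -2.21, and of 18 DNA replication genes 16 were lower and 0 higher (median -1.26). Cdc20, which drives exit from mitosis, lies on chromosome 4 at 118432901 to 118437352 and went from 84.1 and 69.9 CPM through 35.4 and 40.2 CPM with LTα1β2 to 8.32 and 7.35 CPM (log2 change -3.3, SE 0.15, edgeR adjusted p = 3.78e-06). Ccnb1, a mitotic cyclin, went from 122 and 102 CPM through 49 and 53.7 CPM to 16.1 and 15.1 CPM (-2.85, SE 0.13, adjusted p = 3.77e-06), and Rrm2, which supplies nucleotides for replication, from 232 and 249.8 CPM through 118 and 135 CPM to 39.3 and 32.3 CPM (-2.75, SE 0.13, adjusted p = 4.78e-06). Mki67, the proliferation antigen, fell from 47.6 and 35.5 CPM to 16.8 and 13.5 CPM, and the helicase gene Mcm2 from 91.1 and 81.4 CPM to 24.4 and 22.4 CPM. Cdkn1a, which encodes the cycle inhibitor p21, was the only cell cycle gene that rose, from 163 and 175 CPM and 131 and 145 CPM to 473 and 542 CPM (1.59, SE 0.11, adjusted p = 2.37e-05). Of 18 lower cell cycle genes with a promoter entry 15 hold a CCAAT box and 11 a CHR match, and the Cdc20 region shown above holds both. Stromal marker sums were lower in the same libraries, and whether macrophages or stromal cells carried the proliferation genes was not tested.

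Stromal genes fell. Col1a1, a collagen chain of fibroblasts and bone, fell from 2741 and 1699 CPM through 632 and 936 CPM to 161 and 179 CPM (log2 change -3.71, SE 0.28, edgeR adjusted p = 3.36e-05), Col3a1 from 613 and 377 CPM to 13.4 and 16.3 CPM (-5.06, SE 0.32, adjusted p = 1.55e-05) and Acta2, smooth muscle actin, from 2804 and 2229 CPM to 264 and 242 CPM (-3.31, SE 0.18, adjusted p = 6.72e-06). Vehicle replicate 1 was the higher vehicle library for each of these genes. Among called genes whose groups did not overlap, with the higher group averaging 5 CPM or more and predicted gene models left out, the 10 largest decreases by log2 change were in Sp7, Col8a2, Ccn5, Ibsp, F13a1, Slco2b1, Fmod, Col3a1, Plin4 and Itm2a, of which Sp7 and Ibsp belong to bone-forming cells and Col8a2, Fmod and Col3a1 to the matrix. Sp7 had 557 vehicle reads against 2 with the combination, 186 times as many after scaling (95% counting interval 51.3 to 1541). Both of those reads were in combined replicate 2, and the log2 change of -7.37 was -6.43 without combined replicate 1 and -10.92 without replicate 2, where the remaining library had 0 reads and the fitted value depends on the prior count. Slco2b1, an organic anion transporter on chromosome 7 at 99657804 to 99711340, fell from 14.3 and 18.9 CPM and 10.2 and 8.45 CPM to 0.365 and 0.306 CPM (-5.59, SE 0.30, adjusted p = 7.57e-06), and F13a1, the coagulation factor subunit of resident macrophages, from 107 and 195 CPM through 9.19 and 7.81 CPM to 2.63 and 3.37 CPM (-5.65, SE 0.34, adjusted p = 1.18e-05). The combined values of Slco2b1 lie close to the level of 3 reads (0.218 and 0.229 CPM in combined replicates 1 and 2), so the size of its fall is uncertain. Ccn5, a matricellular gene, fell from 78.5 and 39.1 CPM to 0.876 and 1.15 CPM. Ibsp fell from 35 and 4.49 CPM to 0.292 and 0.46 CPM, Itm2a, a chondrocyte and T cell membrane gene, from 18.7 and 4.76 CPM to 0.365 and 0.383 CPM, and Plin4, a lipid droplet gene, from 7.45 and 2.59 CPM to 0 and 0.306 CPM. Col8a2 had 299 vehicle reads against 2, 99.9 times as many after scaling (27.4 to 829). The vehicle libraries of these 4 genes were unequal, replicate 1 being the higher, and their calls were lost with limma voom, where adjusted p was 0.194 for Ibsp, 0.0744 for Itm2a, 0.06 for Plin4 and 0.244 for Col8a2. The log2 change of Ibsp was -5.7 with all libraries, -3.61 without vehicle replicate 1 and -6.57 without replicate 2, that of Itm2a -4.96, -3.69 and -5.67, that of Col8a2 -6.43, -4.09 and -7.31, and that of Plin4 -5.01, -4.09 and -5.61. Plin4 was also at -4.03 without combined replicate 1 and -9.5 without replicate 2, where the remaining library had 0 reads. For Fmod, a matrix proteoglycan, the log2 change was -5.32, with -4.68 without vehicle replicate 1 and -6.28 without combined replicate 2. Among matrix metalloproteinases and their inhibitors 6 of 12 fell and 2 rose, the decreases including Timp3 from 402 and 258 CPM to 59 and 78.7 CPM and Mmp12, the macrophage elastase, from 375 and 403 CPM to 139.6 and 115 CPM, while the membrane protease gene Mmp14 rose from 383 and 375 CPM to 756 and 885 CPM (the other was Mmp25, at 0.463 and 0.27 CPM and 4.31 and 9.42 CPM, whose log2 change of 4.17 was 3.44 without combined replicate 2). Whether any of these decreases came from fewer stromal cells was not tested.

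The 10 largest increases by the same rule were in Ubd, Cxcl9, Apol7c, Nos2, Gbp4, Cst7, Cfb, Iigp1, Gbp5 and Cxcl10. Ubd, a ubiquitin-like modifier that targets proteins to the proteasome, had 0 reads in vehicle, 14.2 and 14.5 CPM with LTα1β2 and 119 and 129 CPM with the combination. Set against 3 reads summed over the vehicle libraries, it was at least 1657-fold higher with the combination. Cst7, an inhibitor of lysosomal proteases, went from 0.324 and 0.216 CPM through 19.9 and 19 CPM to 221 and 235 CPM (log2 change 9.66, SE 0.18, edgeR adjusted p = 9e-08). Its value in vehicle replicate 2 lies close to the level of 3 reads (0.162 CPM in that library), so the size of its rise is uncertain. Iigp1, an immunity-related GTPase, went from 3.19 and 1.51 CPM through 2001 and 1903 CPM to 1519 and 1450.2 CPM, a log2 change of 9.27 that was 9.88 without vehicle replicate 1. That the combined libraries of these 10 genes stood above the vehicle libraries was required by the rule. Their LTα1β2 libraries also stood above every vehicle library, and the combined libraries stood above the LTα1β2 libraries in all but Gbp4 and Iigp1. Both statements reuse the vehicle and combined libraries by which these genes were chosen, so they are only a description. Across all genes tested, the combined and vehicle libraries did not overlap for 73.8%, 38% with the combined group higher and 35.7% with it lower.

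The combined treatment was then set beside LTα1β2 alone. The changes of both treatments share the vehicle libraries, so only the direct comparison of LCL161 plus LTα1β2 with LTα1β2 tests whether they differ. That comparison called 4832 genes (25.7%), 1989 higher (10.6%) and 2843 lower (15.1%), and LTα1β2 against vehicle called 4401 (23.4%), 2410 higher (12.8%) and 1991 lower (10.6%). Without LTα1β2 replicate 2 the direct comparison called 2332, and LTα1β2 against vehicle called 1930 and 2807 when vehicle replicates 1 and 2 were left out, and 2457 and 2499 when LTα1β2 replicates 1 and 2 were. For the GTPases the median log2 changes against vehicle were 6.19 with the combination and 7.13 with LTα1β2, and in the direct comparison Gbp5 was higher and Gbp2b, Gbp8 and Gbp11 were lower with the combination (1 and 3 of 18). The IkB and feedback group, with medians of 1.85 and 0.28, had 7 of 11 higher with the combination, and the type I interferon group (3.62 and 2.39) had 21 of 32. The neutrophil attractant list, Pf4 included, had medians on opposite sides of 0 (1.13 and -2.21), and 5 of 6 members were higher with the combination than with LTα1β2. In the cell cycle group, with medians of -2.21 and -0.72, 22 of 26 were lower with the combination.

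**Figure D5:**
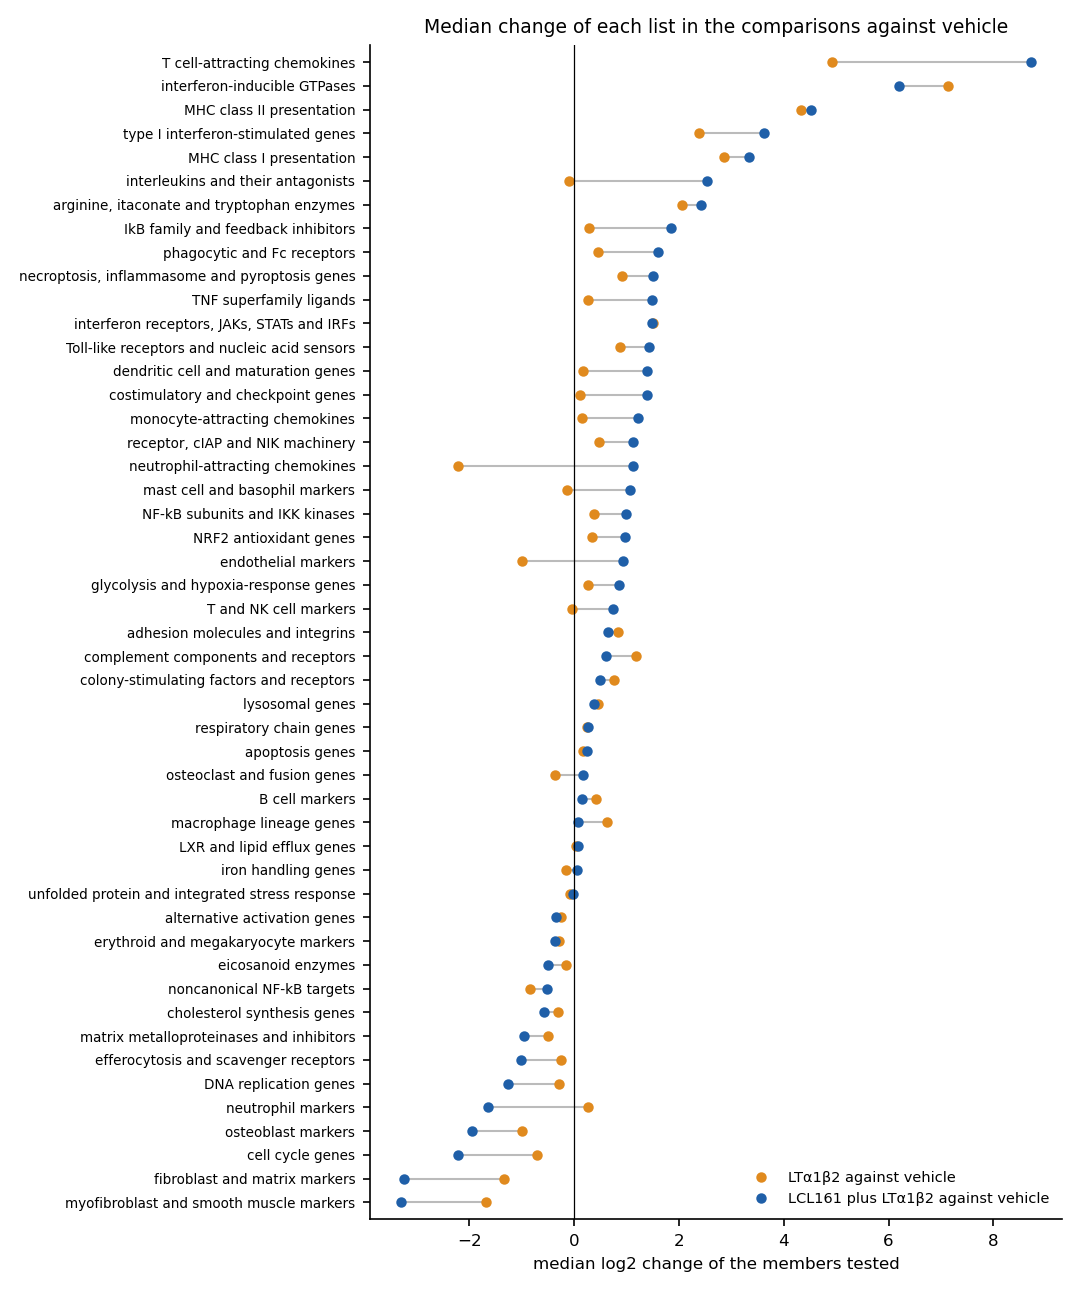
Median log2 change of the tested members of each list with LCL161 plus LTα1β2 (blue) and with LTα1β2 alone (orange), each against the same 2 vehicle libraries and joined by a grey line. The interferon GTPases and MHC class II genes have both points far to the right, the IkB and interleukin lists have the orange point near 0, and the neutrophil attractant list has it at -2.21.

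In the direct comparison several genes stood far higher with the combination than with LTα1β2 alone. Nos2 was higher than with LTα1β2 by a log2 change of 6.06 (SE 0.22, edgeR adjusted p = 9.13e-06), Clec4e by 5.81 (SE 0.16, adjusted p = 4.81e-06), Ptges by 4.98 (SE 0.15, adjusted p = 5.17e-06) and Traf1 by 4.66 (SE 0.23, adjusted p = 2.75e-05). H2-M2, a nonclassical MHC class I gene, was at 1.71 and 1.73 CPM in vehicle, 4.98 and 5.19 CPM with LTα1β2 and 283 and 329.8 CPM with the combination. Susd2, a membrane protein gene, stood at 3.75 and 3.4 CPM, 2.04 and 1.71 CPM and 80.7 and 90.5 CPM, and Adora2a, an adenosine receptor gene, at 2.78 and 2.59 CPM, 1.15 and 1.87 CPM and 46.5 and 51.1 CPM. Ptgs2 and Cxcl2 fell with LTα1β2 and exceeded both other groups with the combination (log2 changes against LTα1β2 3.55, SE 0.12, adjusted p = 7.84e-06, and 3.45, SE 0.15, adjusted p = 1.53e-05). Other genes rose with LTα1β2 alone and stood lower, though still above vehicle, with the combination. Against LTα1β2 the log2 change of Fcgr4 was -1.58 (SE 0.092, adjusted p = 5.62e-05), that of Tgm2 -1.35 (SE 0.11, adjusted p = 0.000167), that of C4b -1.28 (SE 0.17, adjusted p = 0.00145) and that of Itgb7, an integrin chain of lymphocyte homing, -1.1 (SE 0.11, adjusted p = 0.000482), with Itgb7 at 21.5 and 23.9 CPM, 118 and 107 CPM and 49.5 and 55.2 CPM. Sectm1a, a T cell costimulator gene, had 1 vehicle read, 7.27 and 7.81 CPM with LTα1β2 and 0.511 and 0.536 CPM with the combination. The combined libraries held 14 reads, a ratio to vehicle after scaling of 20.9 (3.19 to 886). The net log2 change of Sectm1a, 4.03, was 3.05 without vehicle replicate 1 and 6.10 without replicate 2.

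A few genes moved with LTα1β2 and stood near the vehicle level with the combination, and were chosen for that pattern, so their values are a description. Ppfia4, a liprin gene, was at 8.01 and 10.3 CPM in vehicle, 32.2 and 29.6 CPM with LTα1β2 and 9.996 and 8.81 CPM with the combination (net log2 change 0.045, 95% interval -0.34 to 0.43, against LTα1β2 -1.72). Itga9, an integrin chain gene, was at 4.68 and 3.62 CPM, 16.2 and 15.8 CPM and 3.28 and 5.44 CPM (net 0.063, interval -0.54 to 0.67, against LTα1β2 -1.88). Serpinb2, a protease inhibitor gene of macrophages, went the other way, at 15.8 and 25.3 CPM, 3.32 and 2.94 CPM and 14.2 and 29.2 CPM (net 0.079, interval -0.70 to 0.86). The net values of these 3 genes turn sign under total-count scaling, to -0.26, -0.26 and -0.24, and a net change that did not pass does not show that the levels were equal.

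Several of the most sequenced genes also changed. By read count, which favours long transcripts, the 10 genes with the largest share of reads in the combined libraries included Fth1, Prdx1 and H2-D1, a class I heavy chain that rose from 2718 and 3273 CPM to 10112 and 11784 CPM, with counts that were not whole in any library. Thbs1, the thrombospondin gene that platelets, stromal cells and macrophages express, was among the 10 in vehicle and fell from 9176 and 7534 CPM through 3893 and 4898 CPM to 1329.6 and 1210.2 CPM (log2 change -2.72, SE 0.16, edgeR adjusted p = 1.17e-05). Gpnmb, a glycoprotein gene of lysosome-rich macrophages, fell from 5629.7 and 7566 CPM to 3814 and 4089.8 CPM, and Psap, the precursor of lysosomal saposins, rose from 6630.2 and 6606 CPM to 12166 and 11609 CPM.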

How the data were processed

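Expected counts per gene for 6 libraries of total RNA were deposited by the authors. The authors used the GRCm38 build, STAR 2.7.3a and DESeq2 1.26.0, per the submitters' processing notes. Not given in the sources used here: the program that counted the reads, its annotation and its use of strand. Of the deposited values above 0, 66.6% were whole, and the counts were rounded before testing; a fractional count can arise where a read fits several genes, so values of close relatives are uncertain. Samples were grouped by the treatment in their labels. Genes with enough reads (filterByExpr, minimum 10 reads) were fitted over all 6 libraries in edgeR 4.0.16 (R 4.3.3) with TMM factors and 1 mean per group, the quasi-likelihood test, Benjamini-Hochberg adjustment over all 18812 genes tested and a threshold of 0.05. The SE of a log2 change is its size divided by the root of the F statistic. The fit was first tested on simulated data. limma 3.58.1 (voom), DESeq2 1.42.0, other scalings, filters and fits, a replicate block and leaving out each library in turn were alternatives. Of the 55023 entries, 26 are date-like names that cannot be traced to a gene, and none of these is used.

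The comparison and the lists (49 lists, of which 10 are cell type markers, with 712 genes, 666 of them tested) were chosen with earlier results of these data known, so counts of members are descriptions. Genes to name were taken by rule: the lead genes of each list, up to 3 further members with the smallest p, members that moved against most of their list, the 10 largest increases and decreases whose groups did not overlap with at least 5 CPM in the higher group (predicted gene models left out), the 8 largest each way against LTα1β2, 6 genes that LTα1β2 moved and the combination did not, the 10 genes with most reads in a group, and, for each other cell type, its most abundant marker. Some genes that the rule names are not reported here. Members named only to complete a count of at most 5 were chosen with their values seen. Where a group had 0 reads, a fold is a lower bound against 3 reads over both libraries, and with 1 to 3 reads a ratio with an exact (Clopper-Pearson) 95% counting interval is given, which covers counting error only. These bounds, ratios and intervals are scaled by the library totals and TMM factors, so they differ from the plain ratio of the reads. Symbols matched GENCODE M21 for 53496 entries (97.2%), and gene positions are from it. Overlaps were examined for 237 of the genes named, without some members named only to complete a count. Of these 237, 17 share exon bases with a gene of their own strand and 44 with one of the other strand, and 27 have whole counts in no library. Promoters (250 bases before to 50 after the start of a RefSeq entry) are from RefSeq, GRCm38.p6.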

Additional observations from a re-analysis of the deposited data

How the results depend on the processing

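The count of 7431 genes that changed with LCL161 plus LTα1β2 against vehicle stayed within 1.5 times under relative log expression factors (7478), total-count scaling (8698), DESeq2 (6470), limma voom (7444), no filter beyond 1 read (8515), a minimum of 1 CPM in 2 libraries (7365) and a fit of only the 2 groups compared (7559). In every one of these and of the fits below, no gene that was called with all libraries was called in the opposite direction. Total-count scaling called 2137 genes higher and 6561 lower in place of 3463 and 3968. When each library was left out in turn, the count called ran from 4885 to 7285, the count higher from 1900 to 3629, the count lower from 2985 to 3988 and the count of at least 2-fold changes from 3362 to 4645. The count called against LTα1β2 alone ran from 2332 to 4604, and that of LTα1β2 alone against vehicle from 1930 to 4933. A fit without 1 library assumes that the lone sample varies like the other groups. Replicate numbers are shared between the groups, but the labels tie them to no animal, batch or day, and same-numbered libraries deviated together only weakly (correlations of 0.0941 between vehicle and combination, 0.138 between vehicle and LTα1β2 and 0.157 between LTα1β2 and combination, 1 pair of libraries each). With the replicate number as a block the count called was 7308, 3475 higher and 3833 lower. The alternatives were followed for 237 of the genes named, without some members named only to complete a count, such as Flt3, Spi1 and Gbp8. Of these 237, 209 kept their direction and their side of the threshold in every alternative, and all 12 values against LTα1β2 did. Of 98 counts of list members, 65 stayed within 1.5 times in every alternative, and 102 of 1372 values moved further. Genes with a log2 change near 0 that had not passed turned negative under several alternatives, and for these the cause was not tested beyond the shift that total-count scaling gives to all genes. With total-count scaling the values were -0.18 for Casp8, -0.16 for Cd68, -0.22 for Csf1r, -0.26 for Itga9, -0.30 for Ltbr, -0.30 for Lyz2, -0.26 for Ppfia4 and -0.24 for Serpinb2. With no filter beyond 1 read they were -0.047 for Ltbr, -0.046 for Lyz2 and -0.013 for Ppfia4, and with only the 2 groups -0.0077 for Ltbr and -0.005 for Lyz2. With each library left out in turn they ran from -0.0198 to 0.191 for Casp8, -0.0275 to 0.254 for Cd68, -0.0895 to 0.174 for Csf1r, -0.41 to 0.368 for Itga9, -0.148 to 0.0773 for Ltbr, -0.195 to 0.137 for Lyz2, -0.178 to 0.183 for Ppfia4 and -0.594 to 0.493 for Serpinb2. With 14718368 to 19049613 reads per library, 3 reads correspond to 0.138 to 0.229 CPM, and genes near that level cannot be compared. With 2 libraries a group the test borrows its spread from other genes (3 residual and 4.59 prior degrees of freedom), and Dixon's rule for outlying samples, which needs 4, could not be applied. A total-RNA measure per cell was not part of the data, so a shift of all genes together cannot be told apart from scaling.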
